A study of Mus musculus with 4 samples.

Results

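The MYC and MAX network is a family of transcription factors that share a basic helix-loop-helix leucine zipper and bind DNA as pairs. Its 10 members studied here are Myc, Mycl, Max, Mxd1, Mxd3, Mxd4, Mxi1, Mnt, Mga and Mlx, taken by gene symbol from a table of 49315 genes, each matched to 1 Ensembl gene. They were followed in mouse bone marrow-derived macrophages, cells grown from marrow precursors in medium with L-cell supernatant, a source of macrophage growth factor. All 4 libraries came from Lyz2Cre+ mice, whose Cre recombinase is driven from the Lyz2 locus and acts in myeloid cells. From day 7 of culture, cells in serum-free medium were polarized for 24 hours. The M1 libraries (n = 2) are from cells given the inflammatory stimulus, 100 ng/ml of LPS with 50 ng/ml of interferon gamma. The M2 libraries (n = 2) are from cells given the type 2 cytokines IL-4 and IL-13, each at 10 ng/ml. Erlotinib, an EGF receptor kinase inhibitor, is part of the series, but whether these cells were exposed to it is not stated. Unpolarized cells were not analysed here, so "higher" and "lower" describe M1 against M2.

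MYC and its paralogue MYCL pair with MAX, bind the E-box sequence CACGTG and activate genes for ribosome production, metabolism and cell growth. The MXD proteins (Mxd1, Mxd3, Mxd4 and Mxi1) and MNT pair with the same MAX, bind the same site and recruit SIN3 and histone deacetylases, which represses transcription. MGA is a large MAX partner that anchors a Polycomb repressive complex. MLX stands in for MAX with part of the MXD family and MNT, and it is the obligate partner of the glucose-responsive factors MondoA and ChREBP. In macrophages MYC has been linked to the response to IL-4, best documented in human cells, and MYCL in mouse is known from dendritic cells.

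The libraries held 26806370 to 39506242 gene counts, and 14656 genes passed the filter on low counts. M1 and M2 libraries differed broadly, with 77.2% of tested genes called at an adjusted p under 0.05. TMM scaling factors were 0.846 and 0.866 in M1 and 1.17 in each M2 library. Scaling to total counts moved the median gene by -0.45 log2 units (M1 minus M2) and upper-quartile scaling by -0.18, so changes of that size rest on the scaling. The M1 libraries differed from each other by more than counting noise (chi-square per degree of freedom 14.7, against 2.41 for the M2 libraries), and no label says that replicates were separate cultures or animals. P-values therefore measure only the spread between these libraries. All 8 macrophage markers were detected and summed to 5677 and 5437 CPM (read counts scaled to library size by TMM) in M1 and 4732 and 4622 CPM in M2. Single macrophage markers moved in both directions: Cd68 had 129.8 and 107 CPM in M1 and 1225 and 1261 CPM in M2, and Fcgr1 had 684 and 472 CPM in M1 and 21.4 and 21.6 CPM in M2. Csf1r was also lower in M1, and Itgam higher. Lyz2, where the Cre sits, was at 25.3 and 27.3 CPM in M1 and at 6.51 and 6.88 CPM in M2. Fibroblast markers summed to 119 and 111 CPM in M1 and to 1137 and 1162 CPM in M2, with Col1a1 at 551 and 557 CPM there. Dendritic cell markers summed to 466 and 487 CPM in M1 and 4.88 and 4.3 CPM in M2, and Ccr7 gave 423 and 443 CPM of this in M1 and 1.88 and 1.39 CPM in M2. The part of either marker list in the results was not tested. In bulk RNA, fewer cells expressing a gene and less RNA per cell cannot be told apart.

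The network was composed differently in the polarization states. Per kilobase of exons, Mycl was the main MYC family transcript in M1 and Mxd1 the main antagonist, whereas in M2 these were Myc and, among the antagonists, Mnt and Mxd4. Of the 10 members, all passed the filter and 9 were called (77.2% of all tested genes were). There were 6 higher in M1 (37.5% of all tested genes) and 3 lower (39.7%), and the libraries of the groups did not overlap for the same number as were called, 9 of 10 (88.5%). A call alone is therefore ordinary in these data, and the size of the changes says more. A change of at least 1 log2 unit was called for 7 members, against 40.7% of all tested genes. Among those members, Max (1.20), Mnt (-1.08) and Mxi1 (1.00) lay near that limit. Under total-count scaling Max (0.75) and Mxi1 (0.56) fell below it. A test for a change beyond 1 log2 unit kept 3 members higher and 2 lower in M1. Of all 14656 tested genes, the same test called 4840, with 2163 higher and 2677 lower in M1. The median log2 fold change of the members was 0.57, against -0.04 over all tested genes.

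**Figure D1:**
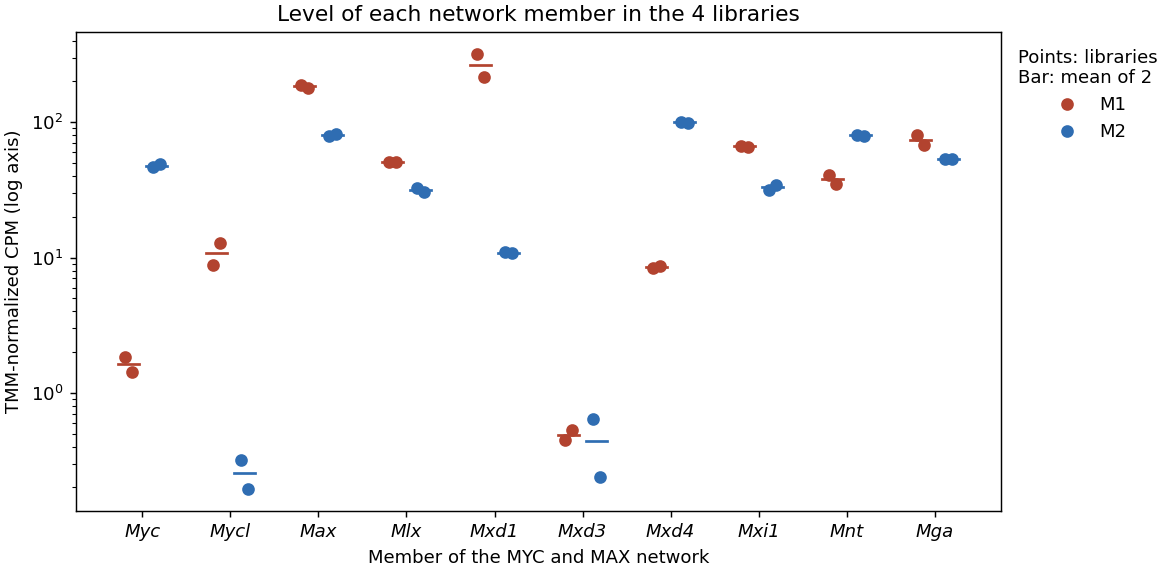
TMM-normalized CPM on a log axis for each network member, with a point for each of the 2 M1 and 2 M2 libraries and a bar at the group mean. Myc and Mycl change places between the groups, as do Mxd1 and Mxd4, and only the Mxd3 points overlap.

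Myc, the founding activator of the network, was low in M1 and abundant in M2. It had 1.85 and 1.42 CPM in the M1 libraries, from 54 and 35 counts, against 46.5 and 49.1 CPM in the M2 libraries, from 1457 and 2261 counts. Each M2 library was far above each M1 library. The difference was 28.8-fold, with a log2 fold change of -4.85 ± 0.12 (SE; edgeR quasi-likelihood test, adjusted p = 8.39e-15, n = 2 each). Of the 14656 tested genes, 320 had a log2 fold change this low or lower. The gene lies on chromosome 15 (chr15:61985391-61990374, GRCm38, plus strand), and no exon of another annotated gene overlaps it. The summed fibroblast markers were lower in M1 as well, although Dcn, decorin, had 17.5 and 12.5 CPM in M1 and 6.1 and 7.66 CPM in M2. Lum was higher in M1 too, with 1.3 and 1.38 CPM against 0.638 and 0.673 CPM in M2. Col1a1, Col1a2, Col3a1 and Pdgfra were lower. Most of the M2 sums came from Col1a1 and Col1a2, the latter at 469 and 486 CPM there. Pvt1, a long non-coding RNA gene next to Myc that was singled out after its values were seen, had 0.583 and 0.529 CPM in M1 and 4.88 and 4.23 CPM in M2, a log2 fold change of -3.01 ± 0.23 (SE; edgeR adjusted p = 1.03e-08).

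Mycl, which encodes L-MYC and lies on chromosome 4 (chr4:122995652-123002485, GRCm38, plus strand), had the opposite pattern. It had 8.82 and 12.8 CPM in the M1 libraries, against 0.319 and 0.195 CPM in the M2 libraries, which is 10 and 9 counts. The groups were far apart, while within each group the libraries differed by 0.54 (M1) and -0.71 (M2) log2 units, replicate 2 minus replicate 1. It was 43-fold higher in M1, with a log2 fold change of 5.43 ± 0.29 (SE; edgeR adjusted p = 3.28e-09). Of the tested genes, 315 had a log2 fold change as high or higher. The summed dendritic cell markers were also higher in M1, and its genes did not move alike. Zbtb46 had 0.858 and 0.935 CPM in M1 and 2.2 and 1.41 CPM in M2, and Flt3 had 0.789 and 0.447 CPM in M1 and 0.0958 and 0.109 CPM in M2. Kit had 7.17 and 6.59 CPM in M1 and 0.223 and 0.304 CPM in M2, and Dpp4 had 2.85 and 2.24 CPM in M1 and 0.128 and 0.174 CPM in M2. Among these, Zbtb46 was lower in M1 and the others higher. Xcr1, a chemokine receptor of dendritic cells, had 30.9 and 31.9 CPM in M1 and 0.0638 and 0.0868 CPM in M2. Mycn, the remaining MYC paralogue, had 2 and 2 counts in M1 and 0 and 3 in M2, which does not exceed the limit of 3 counts that a count of 0 allows. It was not tested.

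Per kilobase of exons, the MYC family was smaller and differently made up in M1. Myc and Mycl together reached 2.87 and 3.7 CPM per kb in M1 and 17.2 and 18.1 in M2. Mycl alone gave 2.18 and 3.17 of the M1 levels, whereas Myc alone gave 17.1 and 18.1 CPM per kb in M2. The level of Mycl in M1 was therefore well under that of Myc in M2.

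Max, the shared partner, was the most abundant member per kilobase of exons in M1 and in M2, a rank that depends on the length used. It had 189.8 and 179.9 CPM in M1, against 79.7 and 81.6 CPM in M2. The 2.29-fold difference (log2 fold change 1.20 ± 0.06 SE, edgeR adjusted p = 8.73e-11) was the same in direction under each scaling, from 0.75 with total counts to 1.22 with RLE. Mlx, the MAX-like partner, had 50.9 and 50.6 CPM in M1 and 32.6 and 30.7 CPM in M2, with no overlap. It was 1.61-fold higher in M1 (0.68 ± 0.07 SE on the log2 scale, edgeR adjusted p = 1.90e-07), a difference that total-count scaling cut to 0.24. Of its exonic bases, 19.3% overlap Psmc3ip on the opposite strand, a gene with 27 to 82 counts per library. The kit does not mark strand, so reads of that overlap cannot be assigned to either gene.

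Among the antagonists, Mxd1 and Mxd4 moved in opposite directions. Mxd1 (chr6:86647042-86669161, GRCm38, minus strand), or MAD1, a repressor typical of differentiating cells, had 319 and 214 CPM in the M1 libraries, against 10.9 and 10.8 CPM in the M2 libraries. The M1 libraries were unequal, and both were well above M2. It was 24.6-fold higher in M1 (log2 fold change 4.62 ± 0.29 SE, edgeR adjusted p = 6.41e-04). Its gap between the M1 libraries, -0.58 log2 units for replicate 2 minus replicate 1, was matched or exceeded by 0.517% of the 7937 tested genes with at least 10 CPM in M1. Without M1 replicate 1 the log2 fold change was 4.30, and without M1 replicate 2 it was 4.88.

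Mxd4 (chr5:34173883-34187720, GRCm38, minus strand), a further MXD repressor, had 8.31 and 8.66 CPM in the M1 libraries, against 101 and 99.4 CPM in the M2 libraries. Replicates nearly coincided. The 11.8-fold difference (log2 fold change -3.56 ± 0.08 SE, edgeR adjusted p = 1.88e-15) was far larger than that spread. Mnt, which is expressed in most cell types and restrains MYC in resting as well as dividing cells, also lay on the M2 side. It had 41 and 34.9 CPM in M1 and 80.9 and 79.4 CPM in M2. The libraries did not overlap, and Mnt was 2.11-fold lower in M1 (-1.08 ± 0.07 SE on the log2 scale, edgeR adjusted p = 4.90e-09).

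Mxi1, the MXD protein MXI1, went with Mxd1. It had 66.7 and 65.8 CPM in M1, against 31.4 and 34.5 CPM in M2, a 2.01-fold difference (1.00 ± 0.07 SE on the log2 scale, edgeR adjusted p = 2.34e-09). Mga, the Polycomb-linked MAX partner, differed least among the called members, with 80.2 and 67.9 CPM in M1 and 53.8 CPM in each M2 library. Its log2 fold change of 0.46 ± 0.08 (SE, edgeR adjusted p = 6.38e-05) became 0.01 and was no longer called under total-count scaling. Mxd3, which in mouse is known from cells in S phase, was barely detected: 13 and 13 counts in M1 and 20 and 11 in M2. It was the member that was not called (log2 fold change 0.25, 95% interval -0.78 to 1.28, edgeR adjusted p = 0.642), and its groups overlapped. At this depth a difference within that interval was not detectable. Of its exonic bases 4.43% overlap Prelid1, a gene with 4535 to 7726 counts per library. The genes that share exonic bases with Mxd4 and Mxi1, Gm42846 and Gm10197, had at most 1 count in any library.

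**Figure D2:**
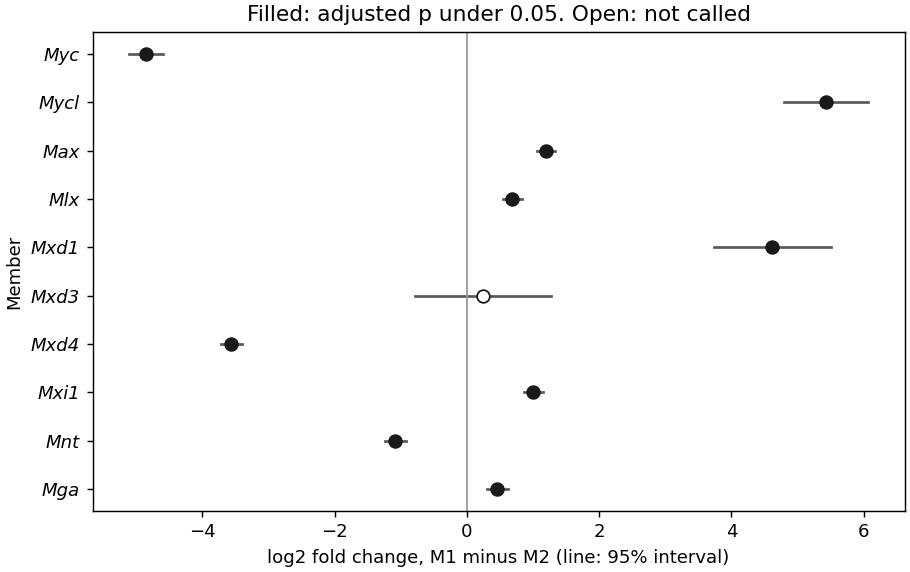
Log2 fold change of each member, M1 minus M2, with its 95% interval from the edgeR fit, where values right of the line are higher in M1. Intervals are wide for Mycl, Mxd1 and Mxd3, and the Mxd3 interval of -0.78 to 1.28 is the one that spans the line.

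The order of the levels per kilobase of exons differed between the groups. In M1 it ran from Max (51.4 ± 1.94 CPM per kb, SD, n = 2) through Mxd1 (37.7 ± 10.5), Mlx (25.4 ± 0.0796), Mxi1 (9.71 ± 0.0908), Mnt (8.19 ± 0.936) and Mga (4.83 ± 0.568) to Mycl (2.68 ± 0.699). Mxd4, Myc and Mxd3 came last, at 1, 0.603 and 0.206 CPM per kb. No neighbours in this order overlapped between libraries, although Mxi1 and Mnt were close. In M2, Max (22.4 ± 0.375 CPM per kb) was followed by Myc (17.6 ± 0.668), Mnt (17.3 ± 0.229), Mlx (15.8 ± 0.687) and Mxd4 (11.8 ± 0.108). Myc and Mnt overlapped there and cannot be ordered. Below them were Mxi1 (4.83 ± 0.33), Mga (3.51 ± 0.002), Mxd1 (1.54 ± 0.00539), Mxd3 (0.185 ± 0.119) and Mycl (0.0637 ± 0.0217). The orders also rest on the length used. With the longest transcript in place of all exons, Mxd4 stood at rank 2 and Myc at rank 3 in M2. With coding length, the mean of Mxd1 stood above that of Max in M1, and Myc stood lower in the M2 order.

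Set against each other, the activating members were scarcer relative to the repressing ones in M1. Mxd1, Mxd3, Mxd4, Mxi1 and Mnt summed to 64.9 and 48.7 CPM per kb in M1 and 35.7 and 35.6 in M2. Mxd1 alone gave 45.1 and 30.3 of the M1 sums, and the size of the difference between the sums depends on the scaling. For M1 replicate 2, the nearer to M2, so does whether its sum stands clear of the M2 sums. The ratio of the MYC family to the summed antagonists was 0.0441 and 0.0759 in M1 and 0.481 and 0.509 in M2, with no overlap. With 2 libraries in each group no exact test can reach 0.05, so these sums are descriptions. Of all members but Max, Mxd1 made up 45.8% and 36.8% of the summed level in M1 and 2.12% and 2.11% in M2. Myc made up 0.693% and 0.638% in M1 and 23.5% and 24.9% in M2. Mxd4 followed Myc, with 0.994% and 1.24% in M1 and 16.3% and 16.2% in M2. These are transcript levels, and protein was not measured.

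**Figure D3:**
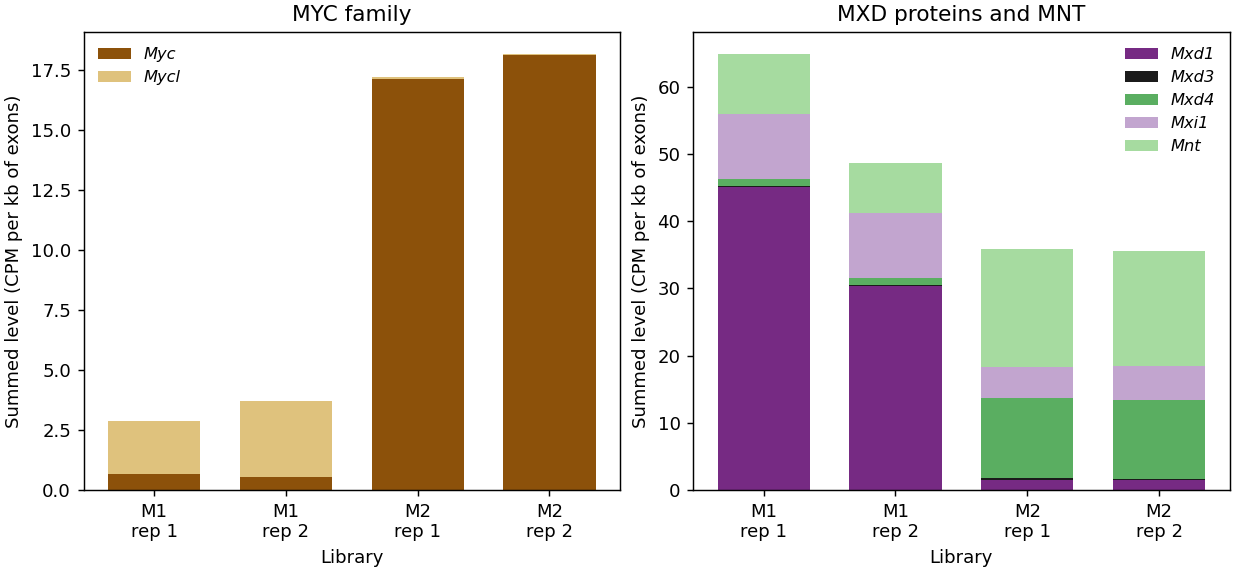
Stacked levels in CPM per kilobase of exons for the MYC family (left) and the MXD proteins with MNT (right) in each of the 2 M1 and 2 M2 libraries. The left bars are mostly Mycl in M1, reaching 2.87 and 3.7, and almost entirely Myc in M2, reaching 17.2 and 18.1; the right bars change from mostly Mxd1 in M1 to mostly Mnt and Mxd4 in M2.

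The E-box that the network itself reads was looked for in the members' promoters, from 250 bases before to 50 bases after the start of the gene, in RefSeq sequence of GRCm38.p6. The table held promoters of 9 members, with 3 for Mxi1, and none for Myc. CACGTG, which reads the same on both strands, was present in 4 of the 11 member promoters (those of Max, Mlx, Mnt and Mxd4), against 7.15% of all 32851 promoters of that length. These 4 are shown because they carry the motif, in capitals, and include members that were higher in M1 (Max, Mlx) and lower in M1 (Mnt, Mxd4). All are written 5′ to 3′ on the strand of the gene: Max on the minus strand (chr12:76962199-76962498), Mlx on the plus strand (chr11:101087040-101087339), Mnt on the plus strand (chr11:74830674-74830973) and Mxd4 on the minus strand (chr5:34187661-34187960).
Max: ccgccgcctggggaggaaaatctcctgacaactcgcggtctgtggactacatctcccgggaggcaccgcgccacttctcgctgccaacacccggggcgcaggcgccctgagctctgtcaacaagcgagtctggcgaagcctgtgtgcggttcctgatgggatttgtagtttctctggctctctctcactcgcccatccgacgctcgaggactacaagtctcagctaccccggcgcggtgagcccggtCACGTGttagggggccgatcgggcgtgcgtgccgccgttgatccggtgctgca
Mlx: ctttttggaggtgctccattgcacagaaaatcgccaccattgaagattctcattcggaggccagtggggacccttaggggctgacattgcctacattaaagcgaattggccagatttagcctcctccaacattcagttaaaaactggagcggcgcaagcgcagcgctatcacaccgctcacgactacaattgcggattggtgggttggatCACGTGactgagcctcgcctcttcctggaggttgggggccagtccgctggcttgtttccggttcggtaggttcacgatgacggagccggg
Mnt: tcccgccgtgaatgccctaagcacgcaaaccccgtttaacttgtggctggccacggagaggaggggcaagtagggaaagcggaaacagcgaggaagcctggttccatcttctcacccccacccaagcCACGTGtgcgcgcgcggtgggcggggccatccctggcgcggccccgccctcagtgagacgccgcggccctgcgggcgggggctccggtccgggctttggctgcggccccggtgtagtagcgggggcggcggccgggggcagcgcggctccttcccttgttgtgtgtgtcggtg
Mxd4: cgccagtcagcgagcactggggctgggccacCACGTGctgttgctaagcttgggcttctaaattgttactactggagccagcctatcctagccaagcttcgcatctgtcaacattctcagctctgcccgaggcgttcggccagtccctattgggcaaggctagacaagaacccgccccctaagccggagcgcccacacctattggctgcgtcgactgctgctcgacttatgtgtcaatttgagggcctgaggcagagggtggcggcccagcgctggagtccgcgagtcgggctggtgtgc
Counted from the start of each gene, the E-box began at -3 in Max, -40 in Mlx, -123 in Mnt and -219 in Mxd4. The promoters of Mycl, Mxd1, Mxd3, Mxi1 and Mga held no CACGTG in this window. Mxd1, the member highest in M1 relative to M2 among the antagonists, is shown for contrast, on the minus strand (chr6:86669110-86669409).
Mxd1: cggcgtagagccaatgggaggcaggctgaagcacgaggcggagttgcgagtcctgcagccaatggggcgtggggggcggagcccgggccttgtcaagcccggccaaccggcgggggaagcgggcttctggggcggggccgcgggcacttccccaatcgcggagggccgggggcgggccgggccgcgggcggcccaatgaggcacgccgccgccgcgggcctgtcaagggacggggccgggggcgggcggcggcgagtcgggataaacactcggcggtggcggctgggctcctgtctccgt
It held 76.7% G or C and 6 matches to GGGCGG on either strand. That motif was in 9 of the 11 member promoters, with 8 matches in that of Mxd3, and in 35.7% of all promoters. The interferon-type STAT motif TTCNNNGAA, searched on both strands, was in none of the 11 member promoters (8.3% of all promoters). The wider TTCNNNNGAA, preferred by STAT6, was in 2 of the 11, that of Mga and 1 of Mxi1 (6.95% of all promoters). A match is a stretch of letters and not evidence of binding.

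The E-box factors outside the 10 members were divided. Mlxip, which encodes MondoA, had 126 and 115 CPM in M1 and 124 and 122 CPM in M2 and was not called (log2 fold change -0.03 ± 0.06 SE, edgeR adjusted p = 0.689), but it was called lower under upper-quartile (-0.21) and total-count scaling (-0.48). Mlxipl, which encodes ChREBP, had 1 and 2 counts in M1 and 0 and 2 in M2 and was not tested. Usf1 and Usf2 diverged, with Usf1 higher (0.62 ± 0.07 SE on the log2 scale) and Usf2 lower in M1 (-0.76 ± 0.06 SE). Genes known to respond to MLX and MondoA did not move together. Txnip, an inhibitor of glucose uptake, had 71.8 and 67.6 CPM in M1 and 209 and 204 CPM in M2, while its relative Arrdc4 had 44.1 and 45.7 CPM in M1 and 13.7 and 13.2 CPM in M2. Arrdc3 was not called, and Pklr had no count in any library.

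The corepressors recruited by the MXD proteins and MNT were mostly higher in M1 under TMM scaling. Of 17 SIN3 and NCOR complex genes, 11 were higher, 3 lower and 3 not called, with a median of 0.42, against 37.5% higher and 39.7% lower of all tested genes. Total-count scaling gave 7 higher and 8 lower. Arid4a, a SIN3-associated protein, was 1.27 log2 units higher in M1. The scaffolds Ncor1 (0.19) and Sin3b (0.42) were called higher too, and total-count scaling turned them to -0.26 and -0.03. Ncor1 also lost its call without M2 replicate 2 (0.11), under upper-quartile scaling (0.01), without the filter (0.14) and in DESeq2 (0.19). The deacetylase Hdac2 (-0.60) and the histone chaperone Rbbp7 (-0.28) were lower in M1.

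Of 12 coactivators used by MYC, 7 were higher, 1 lower and 4 not called (median 0.25). The share called was 66.7%, against 77.2% of all tested genes, of which 37.5% were higher and 39.7% lower. Upper-quartile scaling gave 4 coactivators higher and 3 lower, and total-count scaling gave 3 higher and 7 lower. Kat2b, a histone acetyltransferase, had 149 and 124 CPM in M1 and 36.2 and 34.6 CPM in M2. The chromatin remodeller Ep400 was higher by 1.35 log2 units and the scaffold Trrap by 0.58, and the call for Trrap ended under total-count scaling (0.13). Kat2a, the paralogue of Kat2b, was lower in M1 (-0.51), and the number lower became 2 without M1 replicate 2.

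MGA's partners in the Polycomb complex PRC1.6 included more genes that were lower than higher in M1. Of 9, 5 were lower (39.7% of all tested genes were), 2 higher (37.5%) and 2 not called, with a median of -0.35. Total-count scaling gave 8 lower and 0 higher. The heterochromatin protein gene Cbx3 (-1.49), the repressor E2f6 (-0.95) and its partner Tfdp1 (-0.59) were lower. Rybp (0.61) and the ubiquitin ligase Rnf2 (0.26) were higher, and total-count scaling ended the call for Rybp (0.16) and turned Rnf2 to -0.19. The call for Rnf2 also ended without M2 replicate 2 (0.22) and under upper-quartile scaling (0.07), which left 1 higher in each case.

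Regulators of MYC protein stability were divided: 5 of 18 were higher in M1, 7 lower and 6 not called (median -0.05), against 37.5% higher and 39.7% lower of all tested genes. Total-count scaling gave 3 higher and 12 lower. Pim1, a kinase that stabilises MYC, had 678 and 732 CPM in M1 and 96.6 and 97.8 CPM in M2, a log2 fold change of 2.86 ± 0.07 (SE, edgeR adjusted p = 1.26e-14). Gsk3a (0.45) was higher and Gsk3b (-0.37) lower, 2 kinases that mark MYC for degradation, and Gsk3a was 0.00 under total-count scaling. Set (-0.25) and the ubiquitin ligase Stub1 (-0.19) were lower in M1, and Stub1 lost its call without M1 replicate 1 (-0.09), without M2 replicate 1 (-0.22), without M2 replicate 2 (-0.19), under RLE scaling (-0.16) and in DESeq2 (-0.19). Fbxw7, the ligase subunit that recognises phosphorylated MYC, was not called (-0.12 ± 0.09 SE, edgeR adjusted p = 0.218), but was called lower without M1 replicate 1 (-0.22), under upper-quartile scaling (-0.31) and under total-count scaling (-0.57).

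Established MYC target genes for ribosome biogenesis were mostly lower in M1. Any link between these genes and the level of Myc was not tested. Of 35, 28 were lower, 3 higher and 4 not called, and their median log2 fold change was -0.52, against -0.04 over all tested genes, of which 39.7% were lower. The nucleolar proteins Npm1 (-0.89) and Ncl (-0.46) and the transcription regulator Mybbp1a (-0.64) were lower. Noc4l (1.28), Tcof1 (0.46) and Wdr43 (0.26) were higher, and under total-count scaling Noc4l was the only call left on that side, with Tcof1 at 0.02 and Wdr43 at -0.19. Wdr43 was not called without M2 replicate 1 (0.21) or under upper-quartile scaling (0.07). The changes were mostly small, since 7 of the 28 passed a test for a change beyond 1 log2 unit. The M1 libraries were unequal in this list, since 33 of the 35 had more CPM in M1 replicate 2 than in replicate 1, against 47% of all tested genes. The median gap was 0.22 on the log2 scale. Without M1 replicate 1 the number higher in M1 was 5. No test of the list as a set was made.

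Targets in metabolism, chaperones and translation were lower in 21 of 31 cases, higher in 7 and not called in 3, with a median of -0.73. Of all tested genes, 39.7% were lower and 37.5% higher. Tfrc, the transferrin receptor, had 53.9 and 62.4 CPM in M1 and 846 and 854 CPM in M2, a log2 fold change of -3.87. The chaperonin Hspd1 (-0.73) and the helicase Eif4a1 (-0.67) were lower too. Some classical targets were higher in M1. Odc1, ornithine decarboxylase, had 262 and 292 CPM in M1 and 50.8 and 49.8 CPM in M2 (log2 fold change 2.46 ± 0.07 SE, edgeR adjusted p = 6.60e-14). The glycolytic genes Hk2 (1.46) and Ldha (0.96) were higher as well. Here too 27 of 31 had more CPM in M1 replicate 2 than in replicate 1.

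Cell cycle targets split, with 4 of 12 tested higher in M1, 5 lower and 3 not called (median -0.16). The share called, 75%, was near the 77.2% of all tested genes. Ccnd2, the cyclin D2 gene, had 642 and 623 CPM in M1 and 22 and 20.5 CPM in M2. Ccne1, cyclin E1, had 56.7 and 60.1 CPM in M1 and 2.78 and 3.3 CPM in M2. These were 4.90 and 4.24 log2 units higher in M1, and Cdc25a, a phosphatase that activates cyclin-dependent kinases, was 0.58 higher, a call that ended under total-count scaling (0.13). Cdk4 (-0.95), E2f1 (-0.83) and Mcm4 (-0.30) were lower, and the call for Mcm4 was lost without M2 replicate 1 (-0.21) and in DESeq2.

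Proliferation genes, given as a reference for the cycling state, were lower in M1 in 13 of 15 cases. Tyms was higher, 1 was not called and the median was -1.06. Of all tested genes, 39.7% were lower. With CPM of at least 5 required in 2 libraries, 7 of the list were called lower. In the test for a change beyond 1 log2 unit, 5 were lower. Pcna had 199.7 and 192 CPM in M1 and 399.6 and 419 CPM in M2. Mcm6 (-1.35) and Mcm3 (-0.76) were lower as well. Of genes that MYC is known to repress, 3 of 8 were higher in M1 and 2 lower, with 3 not called. The share called was 62.5%, against 77.2% of all tested genes. The cell cycle inhibitor Cdkn1a, or p21, had 1043 and 953 CPM in M1 and 255 and 249.6 CPM in M2. Cdkn1b (1.51) and Ndrg1 (2.16) were higher too, whereas the inhibitors Cdkn2c (-1.94) and Cdkn1c (-1.63) were lower.

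**Figure D4:**
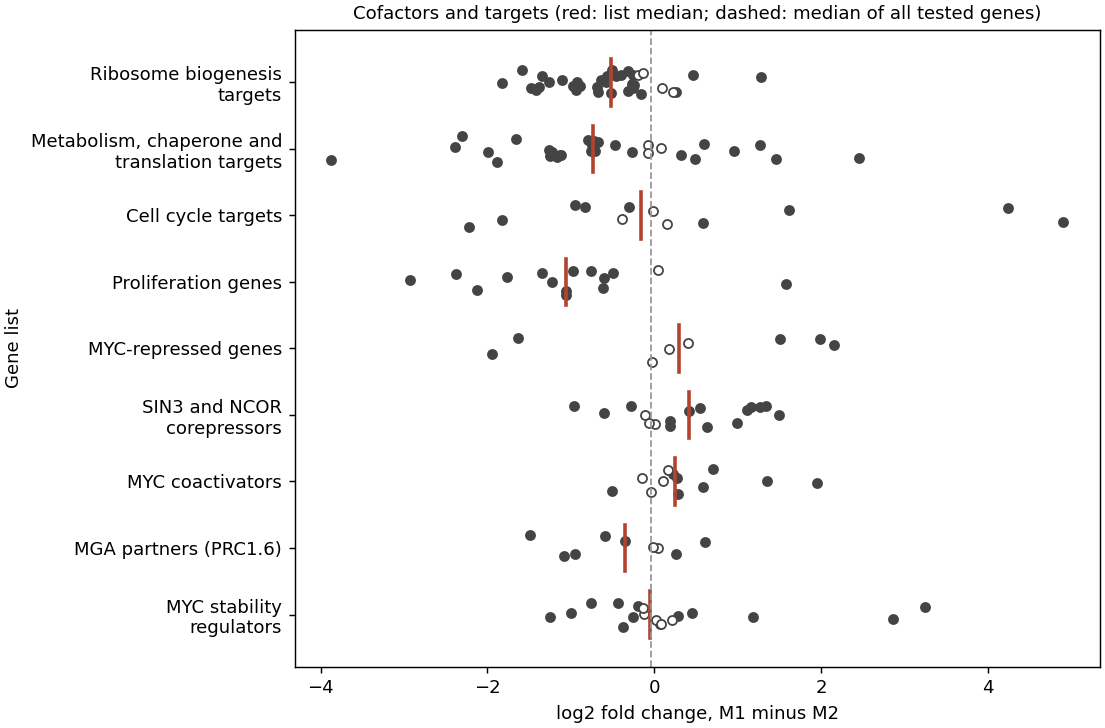
Log2 fold changes, M1 minus M2, of the tested genes in 9 lists of cofactors, targets and related genes, with filled points for calls at an adjusted p under 0.05, a red bar at the list median and a dashed line at the median of all tested genes, -0.04. Ribosome biogenesis targets lie mostly left of the line (28 of 35 lower in M1). So do metabolism, chaperone and translation targets (21 of 31) and proliferation genes (13 of 15). Single genes lie far to the right, such as Ccnd2 (4.90), or far to the left, such as Tfrc (-3.87).

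Of 3 genes reported to depend on MYC in alternatively activated human macrophages, the 2 that were tested were lower in M1. Of all tested genes, 39.7% were lower. These genes were picked from reports on that activated state, and their dependence on Myc was not tested here. Scarb1, a lipoprotein receptor, had 25.8 and 34.6 CPM in M1 and 66.1 and 64.1 CPM in M2 (log2 fold change -1.12 ± 0.12 SE, edgeR adjusted p = 3.17e-05). Mrc1, the mannose receptor, had 2.88 and 2.03 CPM in M1 and 1058 and 1012 CPM in M2, a log2 fold change of -8.70. Alox15 had 1 and 0 counts in M1 and 2 and 2 in M2 and was not tested.

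The tested genes whose profile over the 4 libraries was nearest to that of Myc were Ckb, Gamt and Fhl1. Likeness was the Euclidean distance between profiles of log2(CPM + 0.1), each centred on its own mean. Ckb, brain-type creatine kinase, lay at a distance of 0.122 and had 9.68 and 8.46 CPM in M1 and 253 and 259.7 CPM in M2. Gamt, which completes creatine synthesis, lay at 0.177, with 0.858 and 0.732 CPM in M1 and 21.7 and 23.1 CPM in M2. Fhl1, a LIM domain protein gene, lay at 0.18 with 3 and 1 counts in M1 and 126 and 220 in M2. With so few M1 counts, its distance depends on the offset of 0.1 CPM. With 4 libraries in 2 groups, such likeness mostly reflects the size of the difference between the groups.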

How the data were processed

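Poly(A) RNA libraries of 4 samples were analysed, grouped as M1 (n = 2) and M2 (n = 2) by the polarization label; replicate numbers follow accession order and pair nothing. The authors deposited whole-number read counts per Ensembl gene, not normalized. Trimmomatic 0.36, STAR 2.5.2b, featureCounts, Subread 1.5.2, DESeq2, DESeq and the build GRCm38 are named, per the submitters' processing notes, without how each was used or set. The deposited comparison table was not used.

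Gene IDs were matched to GENCODE vM21 (GRCm38), and 48970 of 49315 had a symbol; the rest held at most 0.0498% of a library's counts. Counts were filtered with filterByExpr (minimum count 10, total 15), TMM-scaled and tested with edgeR 4.0.16 (R 4.3.3; robust quasi-likelihood F test, two-sided, Benjamini-Hochberg over all 14656 tested genes, calls at an adjusted p under 0.05). Fold changes are M1 minus M2; SE is the absolute log2 fold change over the square root of F. CPM is TMM-normalized, and levels between genes are CPM per kilobase of merged exons. The fit was tested on simulated counts. The floor of 3 counts covers counting error only.

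The members and lists were chosen with earlier results of these data known. The text names all members, up to 3 called genes of each list in each direction with the highest mean CPM, the 3 genes nearest to Myc, and Mycn, Mlxip, Mlxipl, Txnip, Arrdc4, Cdkn1a, Odc1, Fbxw7, Scarb1, Alox15 and Mrc1. Some genes that this rule would name are not reported here. Exon-sharing neighbours are named too; Arrdc3, Pklr, Pvt1 and the cell type markers named were singled out after their values were seen. Alternatives were scaling by RLE, by upper quartiles, by total counts and by TMM with the 50 most abundant genes removed; no filter, or CPM of at least 5 in 2 libraries; and leaving out each library. Tests tried were DESeq2 1.42.0, limma-voom (limma 3.58.1), edgeR without robust shrinkage, and glmTreat for changes beyond log2 1.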

Additional observations from a re-analysis of the deposited data

How the results depend on the processing

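The 9 called members kept their direction under all scalings, filters, tests and left-out libraries tried; Mga lost its call under total-count scaling, and Mga, Mlx, Mxi1 and Mnt under glmTreat beyond log2 1, which left 3 members higher in M1. With each library left out in turn, 6 members were higher and 3 lower, and over all genes 10167 to 11525 were called. Total-count scaling gave 3342 genes called higher in M1 in place of 5495 (28.1% of calls in place of 48.6%), and 28 list genes higher in place of 45; upper-quartile scaling gave 39.2% of calls. Beyond log2 1, 4840 genes were called, 2163 higher and 2677 lower, with 20 list genes higher and 27 lower. Under total-count scaling Ncor1 (-0.26), Sin3b (-0.03), Rnf2 (-0.19) and Wdr43 (-0.19) turned to the other side; that scaling lowers all log2 fold changes by about the shift given above (median -0.45). Without division by length, the mean ratio of the MYC family to its antagonists was 0.0342 in M1 and 0.214 in M2, in place of 0.06 and 0.495; by construction, this leaves out the differences in exon length between members. With coding length in place of exon length, Myc stood at rank 6 in M2 and Mxd1 at rank 1 in M1. No paired analysis was possible because the labels give no replicate numbers. With 10 and 9 counts of Mycl in M2 and 35 to 54 of Myc in M1, the low side of these folds rests on few reads. Mxd3 was too scarce to resolve a difference.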
